A study of Saccharomyces cerevisiae with 12 samples.

Results

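The nuclear RNA polymerases of Saccharomyces cerevisiae are built from 31 subunits, and the transcript levels of the 31 genes that encode them are described here. Members were found as the array probes that the files annotate to these reading frames, read as 7 subunits found in Pol I alone, 2 shared by Pol I and Pol III, 7 of Pol II alone, 10 of Pol III alone and 5 common to all 3 enzymes. Each member has 1 probe in 2 spots, and all 31 were among the 5827 genes tested of the 6224 on the array. The yeast strain L40 was profiled in 3 groups of 4 single-colour Agilent arrays. The first group stably expressed scFv-58F (58F below), an intrabody, that is a single-chain antibody fragment made inside the cell, directed against histone H3 acetylated at K9. The second expressed scFv-112A (112A), an intrabody against acetylated HIV-1 integrase that the labels name as the control, and the third was wild type L40 without an intrabody. Intrabody strains were maintained without leucine and wild type cells in rich medium (YPD), before a final overnight culture that was in YPD for all, per the labels' protocols. The promoter of the intrabodies is not given in the sources used here, and nothing in the labels tells if replicates were separate cultures, so p-values measure the spread between these arrays, which may be technical.

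RNA polymerase I makes the precursor of the large ribosomal RNAs, RNA polymerase II makes messenger RNAs and many small nuclear RNAs, and RNA polymerase III makes transfer RNAs, the 5S ribosomal RNA and other small RNAs. The enzymes share one plan: a pair of large subunits forms the active centre, a dimer starts assembly, a stalk reaches towards the nascent RNA, a small zinc-binding subunit aids cleavage of backtracked RNA, and 5 small subunits are the same proteins in every enzyme. Pol I and Pol III carry further subunits that act much as separate initiation factors do for Pol II. In growing yeast most transcription is of ribosomal and transfer RNA, and the messenger RNAs measured here, those for all 31 subunits, are themselves made by Pol II.

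Levels are given as the log2 of the array signal minus the array's 75th percentile, so that 0 is the 75th percentile, and differences are log2 differences between group means with the standard error of the fit. RNA came from whole cultures, so fewer cells with a transcript and less of it per cell cannot be told apart. The 4 arrays of a group lay on 1 slide of their own, so slide and group cannot be told apart. Wild type replicate 1 was the brightest array, with a signal of 9362 at that percentile where the 11 others had 4739 to 6047. It was the highest array of its group for 26 of the 31 subunit genes, against 45.25% of all genes, and its median deviation from the group mean was 0.22 over the subunit genes and 0.03 over all genes tested. Called differences from wild type that moved by more than 0.1 without it are therefore given both ways. LEU2, the marker for growth without leucine, lay between 5.64 and 6.24 on the 8 intrabody arrays and between 1.46 and 1.62 on the wild type arrays. Of the haploid a cell genes, 6 of 6 were above background on all 12 arrays, with a summed linear level, relative to the 75th percentile, from 2.57 to 3.47 (58F), 3.20 to 4.50 (112A) and 2.31 to 2.97 (wild type). Among the alpha cell genes MF(ALPHA)1 was above background on 0 arrays and MF(ALPHA)2 on 3 of 12, STE3 and SAG1 were above it on all, and the 4 genes summed to 0.438 to 0.459, 0.480 to 0.533 and 0.414 to 0.457.

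**Figure D1:**
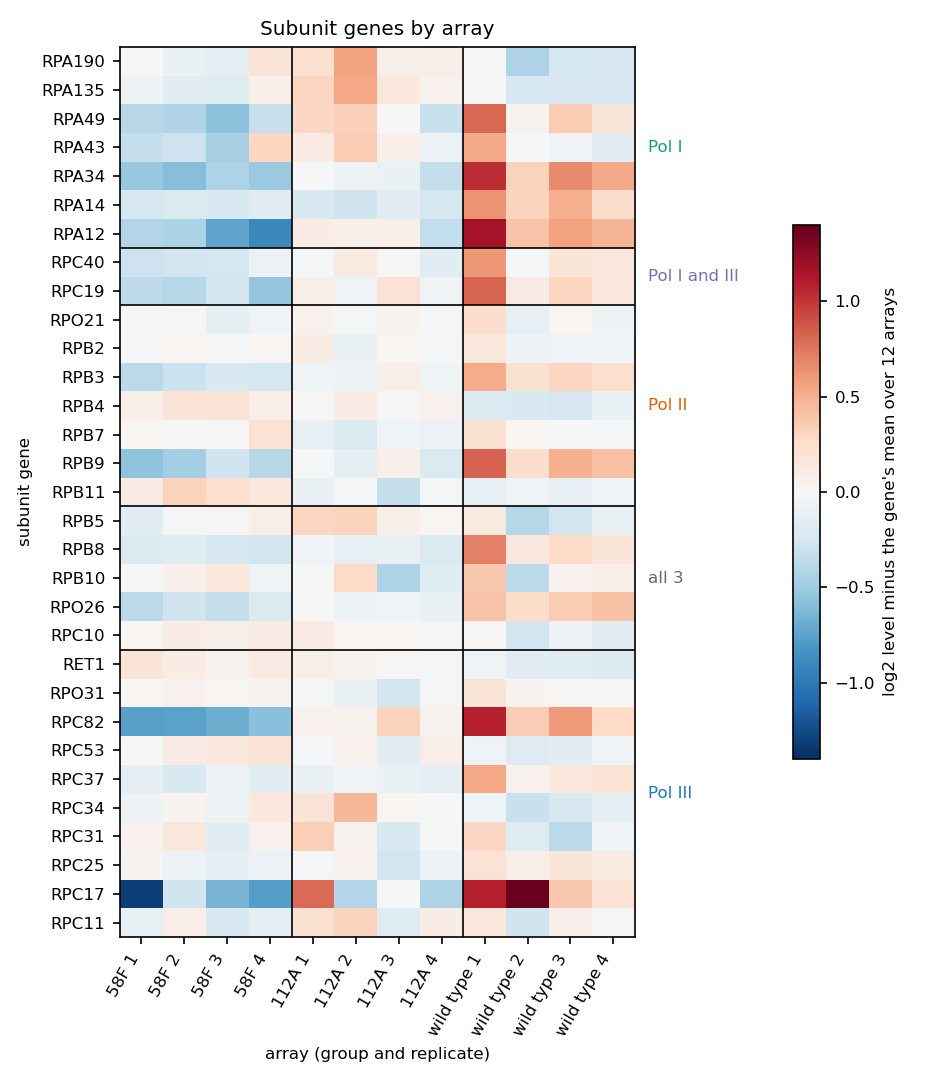
Level of each subunit gene (rows, grouped by enzyme) on each of the 12 arrays (columns), as the log2 level minus the gene's mean over the 12 arrays, from blue (low) to red (high). RPA34, RPA12, RPC19, RPB9 and RPC82 run from blue in 58F to red in wild type, and wild type replicate 1 is the reddest array of its group for 26 of 31 genes.

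The comparison of 58F with 112A sets an intrabody against acetylated histone H3 beside one against a target that yeast lacks. The strains and slides differ as well, so the target of the intrabody cannot be told apart from these. In 58F, 9 subunit genes were lower and 2 were higher than in 112A, by limma with Benjamini-Hochberg adjustment over all genes tested (adjusted p under 0.05). The lower ones were RPA135, RPA49, RPA34 and RPA12 of Pol I, RPC19 of Pol I and III, RPB3 and RPB9 of Pol II, the common subunit RPO26, and RPC82 of Pol III. RPB7 and RPB11 of Pol II were higher. These 11 of 31 make 35.5%, beside 32.0% of all genes called in this comparison, and the shares called lower and higher were 17.9% and 14.1% over all genes. The median difference was -0.16 over the subunit genes and -0.02 over all genes. The arrays of the groups did not overlap for 11 members, 8 lower and 3 higher, beside 34.5% of all genes (19.3% lower and 15.2% higher). Calls of at least 1.5-fold numbered 2, RPC82 (1.76-fold lower) and RPA12, beside 3.55% of all genes. RPA12 was above background on 2 of 4 arrays in each group and was not called with cyclic loess (-0.38, adjusted p = 0.211), so its size is uncertain. In all, 0 members and 0.532% of all genes reached 2-fold. Of the 11 calls, those of RPC82, RPO26 and RPB11 remained whichever single array was left out. The 8 others were lost without at least 1 array, and the number called lower was 3 without 112A replicate 1, 4 without 58F replicate 1 and 4 without 58F replicate 2.

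Against wild type, 58F had 14 subunit genes lower and 5 higher. RPC82 (2.42-fold) and RPA34 (2.23-fold) were lower by over 2-fold, and RPB4 was higher by 1.25-fold. RPC17 and RPA12 had fitted differences of -1.52 and -1.27, but in 58F they were above background on 1 and 2 of 4 arrays, and with normexp background they came to -0.39 (adjusted p = 0.0805) and -0.54. The 19 calls make 61.3% of the members beside 61.9% of all genes, of which 32.2% were lower and 29.7% higher. The arrays did not overlap for 19 members (14 lower and 5 higher), beside 57.9% of all genes (30.6% lower and 27.3% higher). Calls of at least 1.5-fold numbered 10, beside 15.2% of all genes, and those of at least 2-fold 4, the dim RPC17 and RPA12 included, beside 3.55%. Against wild type, 112A had 12 subunit genes lower and 7 higher. These 19 calls make 61.3% beside 48.3% of all genes, of which 25.5% were lower and 22.8% higher. The arrays did not overlap for 16 members (11 lower and 5 higher), beside 39.8% of all genes (22.0% lower and 17.8% higher). Calls of at least 1.5-fold numbered 3, beside 6.08% of all genes. At least 2-fold were 0 members and 0.704% of all genes, and the extremes among the calls were RPA34 (1.69-fold lower) and RPA190 (1.38-fold higher). Both comparisons share the wild type arrays, so their values are given side by side only. Without wild type replicate 1 the counts were 14 lower and 6 higher for 58F and 10 lower and 7 higher for 112A.

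**Figure D2:**
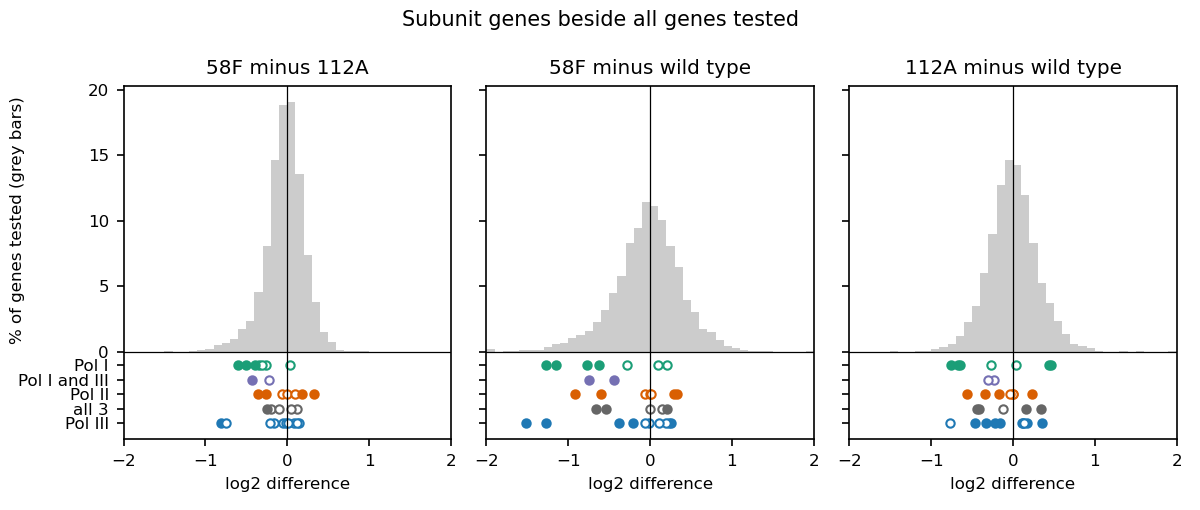
Log2 differences of all 5827 genes tested (grey bars, percent of genes per 0.1 log2, values beyond 2 drawn at the edge) with the subunit genes below them (points, 1 row per class, filled where adjusted p is under 0.05), for the 3 comparisons. Most subunit genes lie within the bulk of all genes, and the points farthest left (with the dim RPC17 and RPA12 among them) are RPC82 for 58F against 112A, RPC17, RPC82 and RPA12 for 58F against wild type, and RPC17 and RPA34 for 112A against wild type.

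The large subunits that form the active centres differed little for Pol II and Pol III, and those of Pol I were above wild type in 112A. RPA190 (YOR341W), the largest subunit of Pol I, had levels of -2.73, -2.82, -2.86 and -2.55 in 58F, -2.50, -2.16, -2.65 and -2.63 in 112A and -2.73, -3.15, -2.97 and -2.95 in wild type (replicates 1 to 4 in order, as below). All 112A arrays lay above all wild type arrays, while the 58F arrays overlapped both groups. RPA190 was 1.38-fold above wild type in 112A (log2 difference 0.47 ± 0.12, adjusted p = 0.00695), and 58F did not pass the test against 112A (-0.25 ± 0.12, adjusted p = 0.12) or wild type (0.21 ± 0.12, adjusted p = 0.135). RPA135 (YPR010C), its partner in the active centre, was likewise above wild type in 112A (0.45 ± 0.10, adjusted p = 0.00346) and lower in 58F than in 112A (-0.35 ± 0.10, adjusted p = 0.0197). The last call was lost without 58F replicate 2, 58F replicate 3 or 112A replicate 1 (adjusted p 0.0517 to 0.0556). Group means of RPA135 were -3.60 ± 0.11 for 58F, -3.26 ± 0.21 for 112A and -3.70 ± 0.11 for wild type (SD, n = 4).

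For Pol II, RPO21 (YDL140C), the largest subunit and the bearer of the C-terminal repeat domain, had levels of 0.73, 0.73, 0.58 and 0.67 in 58F, 0.78, 0.70, 0.77 and 0.70 in 112A and 0.96, 0.60, 0.74 and 0.65 in wild type. The groups overlapped throughout, and no comparison passed the test (58F against wild type -0.06 ± 0.07, adjusted p = 0.484, 95% interval -0.22 to 0.10). RPB2 (YOR151C), its partner, had group means of -0.82 in each group, and the 95% interval of 58F minus 112A ran from -0.13 to 0.12. For Pol III, RPO31 (YOR116C), the largest subunit, had levels of -3.47, -3.43, -3.46 and -3.44 in 58F, -3.52, -3.59, -3.75 and -3.51 in 112A and -3.31, -3.45, -3.47 and -3.50 in wild type. Its 58F arrays lay above its 112A arrays by a small margin, without passing the test (0.14 ± 0.06, adjusted p = 0.091), although the difference was called with quantile scaling (0.21, adjusted p = 0.00566) and cyclic loess (0.19, adjusted p = 0.00831). RPO31 was called below wild type in 112A (-0.16 ± 0.06, adjusted p = 0.0463), a call that was lost on leaving out any of 9 of the 12 arrays (all but 112A replicates 1 and 4 and wild type replicate 4, adjusted p 0.0578 to 0.114). With normexp background this difference was -0.01 (adjusted p = 0.816). It was also not called without the filter on dim probes (adjusted p = 0.0509) or in the authors' deposited table (-0.13, adjusted p = 0.0714). The call was lost as well with the 2 groups fitted alone (adjusted p = 0.103) and with replicate number added to the fit as a block (a replicate block, adjusted p = 0.0533). RET1 (YOR207C), the partner of RPO31, had levels of -0.34, -0.42, -0.47 and -0.42 in 58F, -0.44, -0.48, -0.51 and -0.56 in 112A and -0.58, -0.68, -0.70 and -0.72 in wild type. Its wild type arrays were the lowest. RET1 was 1.19-fold higher in 58F (0.26 ± 0.05, adjusted p = 0.000549) and 1.13-fold higher in 112A (0.17 ± 0.05, adjusted p = 0.0103) than in wild type.

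The assembly dimers resemble the alpha dimer of the bacterial enzyme. RPC19 (YNL113W), one member of the dimer of Pol I and III, had levels of -2.96, -2.99, -2.85 and -3.13 in 58F, -2.51, -2.65, -2.39 and -2.64 in 112A and -1.77, -2.47, -2.29 and -2.43 in wild type. All 58F arrays lay below all others, and 112A and wild type overlapped. RPC19 was 1.67-fold below wild type in 58F (-0.74 ± 0.13, adjusted p = 0.000488, or -0.59 without wild type replicate 1) and 1.35-fold lower than in 112A (-0.43 ± 0.13, adjusted p = 0.0275). The call against 112A was lost without 58F replicate 1, 2 or 4 or 112A replicate 1 or 3 (adjusted p 0.0544 to 0.0697). The other member, RPC40 (YPR110C), had levels of -3.48, -3.45, -3.43 and -3.26 in 58F, -3.20, -3.06, -3.17 and -3.33 in 112A and -2.58, -3.22, -3.02 and -3.03 in wild type. It was below wild type in 58F (-0.45 ± 0.11, adjusted p = 0.0048, or -0.32 without wild type replicate 1) without passing the test against 112A (-0.22 ± 0.11, adjusted p = 0.166), where the same difference had an adjusted p of 0.0339 with wild type replicate 1 left out of the fit and 0.042 with the 2 groups fitted alone. Between 112A and wild type neither was called (adjusted p = 0.074 for RPC19 and 0.112 for RPC40), and both were without wild type replicate 2 (0.0414 and 0.0364). Without wild type replicate 1 these differences shrank, from -0.31 to -0.15 for RPC19 and from -0.23 to -0.10 for RPC40. RPC19 was called in this comparison with normexp background, quantile scaling, cyclic loess, median scaling and a replicate block (adjusted p 0.0333 to 0.0482). RPC40 was called there with quantile scaling (0.0339).

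In the corresponding dimer of Pol II one member was lower and the other higher in 58F. RPB3 (YIL021W) had levels of -2.43, -2.35, -2.27 and -2.30 in 58F, -2.11, -2.13, -1.97 and -2.12 in 112A and -1.53, -1.84, -1.75 and -1.82 in wild type. The 3 groups did not overlap, with 58F lowest and wild type highest. The differences were -0.60 ± 0.07 for 58F against wild type (1.52-fold, adjusted p = 1.91e-05), -0.34 ± 0.07 for 112A against wild type (adjusted p = 0.00193) and -0.25 ± 0.07 for 58F against 112A (adjusted p = 0.0161, or 0.0505 without 58F replicate 1). RPB11 (YOL005C), its partner, ranged from -0.79 up to -0.58 across the 58F arrays, with 112A between -1.23 and -0.93 and wild type between -1.02 and -0.94. In 58F it exceeded 112A (0.33 ± 0.07, adjusted p = 0.00478) and wild type (0.29 ± 0.07, adjusted p = 0.00375), while 112A minus wild type was -0.04 (95% interval -0.19 to 0.11).

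**Figure D3:**
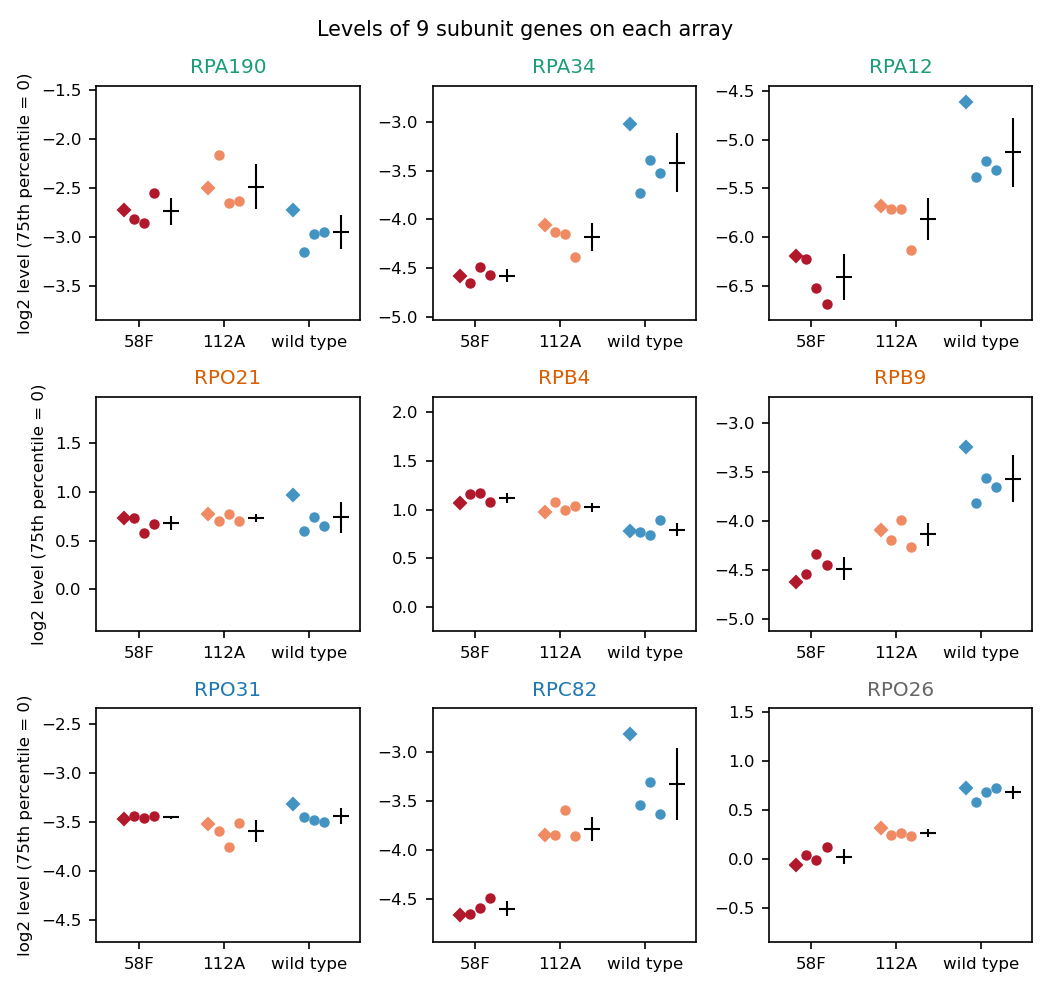
Log2 level (75th percentile of the array at 0) of 9 subunit genes on each array, with replicate 1 of each group as a diamond, replicates 2 to 4 as circles, and the group mean ± SD (n = 4) in black; every panel spans the same number of log2 units. The 3 groups of RPA34, RPB9 and RPO26 do not overlap, with 58F lowest and wild type highest; RPC82 is lowest in 58F while 112A and wild type overlap, RPB4 is lowest in wild type while 58F and 112A overlap, and RPO21 overlaps in all groups.

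Pol I and Pol III each carry a dimer that is related to the Pol II factor TFIIF. Both genes of the Pol I dimer were lower in 58F. RPA34 (YJL148W) had levels of -4.58, -4.65, -4.49 and -4.57 in 58F, -4.05, -4.12, -4.14 and -4.39 in 112A and -3.02, -3.73, -3.39 and -3.53 in wild type. The 3 groups did not overlap. RPA34 was 2.23-fold lower in 58F (-1.16 ± 0.13, adjusted p = 1.15e-05) and 1.69-fold lower in 112A (-0.76 ± 0.13, adjusted p = 0.00053) than in wild type, or -1.02 and -0.62 without wild type replicate 1. Against 112A it was 1.32-fold lower in 58F (-0.40 ± 0.13, adjusted p = 0.0299), which was no longer called when leaving out 58F replicate 1, 2 or 4 or 112A replicate 1, 2 or 3 (adjusted p 0.0553 to 0.0844) and with quantile scaling (-0.28, adjusted p = 0.0662). In 112A against wild type, normexp background gave -0.48. RPA49 (YNL248C), its partner, had means of -5.25 ± 0.11 for 58F, -4.74 ± 0.30 for 112A and -4.47 ± 0.33 for wild type. It was 1.71-fold below wild type in 58F (-0.77 ± 0.17, adjusted p = 0.00165) and 1.42-fold lower than in 112A (-0.50 ± 0.17, adjusted p = 0.0357), the second call being lost without any one of replicates 1 to 3 of either group (adjusted p 0.0519 to 0.102) and with cyclic loess (-0.37, adjusted p = 0.0724). The difference from wild type was -0.62 without wild type replicate 1 and -0.46 with normexp background.

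The Pol III dimer, which takes part in termination and reinitiation, split against wild type. RPC37 (YKR025W) had levels of -2.36, -2.43, -2.30 and -2.38 in 58F, -2.33, -2.27, -2.32 and -2.36 in 112A and -1.68, -2.17, -2.08 and -2.04 in wild type. The 8 intrabody arrays lay below the 4 wild type arrays. RPC37 was lower in 58F (-0.38 ± 0.09, adjusted p = 0.00238) and in 112A (-0.32 ± 0.09, adjusted p = 0.00852), or -0.27 and -0.22 without wild type replicate 1, while 58F minus 112A was -0.05 (95% interval -0.24 to 0.14). RPC53 (YDL150W), by contrast, was slightly above wild type in 58F (0.23 ± 0.06, 1.17-fold, adjusted p = 0.00621), which did not pass the test with normexp background (0.14, adjusted p = 0.0968). Its difference between 112A and wild type (0.11, adjusted p = 0.152) was called with normexp background (0.22, adjusted p = 0.0187) and without 112A replicate 3 (0.16, adjusted p = 0.0384), and that between 58F and 112A (0.12, adjusted p = 0.158) with quantile scaling (0.24, adjusted p = 0.00722).

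Each enzyme has a stalk of a pair of subunits, and differences between the partners were not tested. RPB4 (YJL140W), which with RPB7 forms the dissociable stalk of Pol II and is also known for roles in messenger RNA export and decay, had levels of 1.07, 1.16, 1.17 and 1.07 in 58F, 0.97, 1.08, 1.00 and 1.04 in 112A and 0.78, 0.77, 0.74 and 0.89 in wild type. The 8 intrabody arrays were all above the 4 of wild type. RPB4 was 1.25-fold higher in 58F (0.33 ± 0.05, adjusted p = 9.80e-05) and 1.17-fold higher in 112A (0.23 ± 0.05, adjusted p = 0.00224) than in wild type, and 58F minus 112A was 0.10 ± 0.05 (adjusted p = 0.129), or 0.13 and called with normexp background (adjusted p = 0.0454). RPB7 (YDR404C) had levels of -1.27, -1.29, -1.28 and -1.1 in 58F, -1.41, -1.5, -1.36 and -1.38 in 112A and -1.08, -1.27, -1.30 and -1.31 in wild type. Its 112A arrays were the lowest. RPB7 was called higher in 58F than 112A (0.18 ± 0.06, adjusted p = 0.0498) and below wild type in 112A (-0.17 ± 0.06, adjusted p = 0.0413), both close to the threshold. The first call was lost without any single array but wild type replicate 1 (adjusted p 0.0543 to 0.127), and the second on leaving out any of 8 arrays (58F replicates 1 to 3, 112A replicates 1, 2 and 4, wild type replicates 1 and 2, adjusted p 0.0515 to 0.108). With normexp background the first difference was 0.08 (adjusted p = 0.349). Neither was called with normexp background, with a replicate block (adjusted p = 0.0719 and 0.0599) or in the authors' deposited table. Quantile scaling, cyclic loess and the absence of a filter also ended the first call (adjusted p 0.0564 to 0.0645), and fitting the 2 groups alone ended the second (0.0617).

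In the Pol I stalk RPA14 (YDR156W) was lower in both intrabody strains than in wild type. Its levels were -3.09, -3.06, -3.08 and -3.02 in 58F, -3.09, -3.14, -3.03 and -3.11 in 112A and -2.23, -2.55, -2.35 and -2.62 in wild type. The intrabody groups overlapped closely and lay below every wild type array. The differences from wild type were -0.62 ± 0.07 for 58F (1.54-fold, adjusted p = 2.36e-05) and -0.65 ± 0.07 for 112A (1.57-fold, adjusted p = 5.01e-05), and 58F minus 112A was 0.03 with a 95% interval of -0.13 to 0.19. RPA43 (YOR340C), the other stalk subunit and the one that contacts the initiation factor Rrn3, was called in 0 of the 3 comparisons. Its 58F replicate 4 (-4.77) stood above replicates 1 to 3 (-5.53 to -5.36), and without it RPA43 was called lower in 58F than in 112A (-0.48, adjusted p = 0.0344) and wild type (-0.44, adjusted p = 0.0251). With normexp background the difference from 112A was called as well (-0.34, adjusted p = 0.0349).

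The stalk genes of Pol III were both below wild type in 58F. RPC17 (YJL011C) was dim, above background on 1 array of 58F, 1 of 112A and 2 of wild type. Its levels were -8.53, -7.49, -7.86 and -7.98 in 58F, -6.42, -7.62, -7.21 and -7.64 in 112A and -6.12, -5.82, -6.83 and -7.01 in wild type. The 58F and wild type arrays did not overlap, and the spread within groups was wide (SD 0.43 to 0.57). The fitted difference of 58F from wild type was -1.52 ± 0.33 (adjusted p = 0.00164), or -1.41 without wild type replicate 1 and -0.39 (adjusted p = 0.0805) with normexp background. 112A minus wild type was -0.78 ± 0.33 (adjusted p = 0.0674) and was called without 112A replicate 1 or wild type replicate 4 (adjusted p 0.0171 and 0.0371) and with quantile scaling (-1.38, adjusted p = 0.0131) or cyclic loess (-1.15, adjusted p = 0.0445). RPC25 (YKL144C), its partner, was 1.16-fold lower in 58F (-0.21 ± 0.07, adjusted p = 0.0165) and 1.17-fold lower in 112A (-0.22 ± 0.07, adjusted p = 0.0167) than in wild type, the 112A difference being -0.08 (adjusted p = 0.212) with normexp background.

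The small subunits that aid RNA cleavage were lower in 58F for Pol I and Pol II. RPB9 (YGL070C), the Pol II subunit with a role in start site choice and accuracy, had levels of -4.62, -4.54, -4.34 and -4.45 in 58F, -4.09, -4.19, -3.99 and -4.26 in 112A and -3.24, -3.82, -3.56 and -3.65 in wild type. Its 3 groups did not overlap. RPB9 was 1.89-fold below wild type in 58F (-0.92 ± 0.11, adjusted p = 2.34e-05, or -0.81 without wild type replicate 1) and 1.48-fold lower in 112A (-0.57 ± 0.11, adjusted p = 0.00149, or -0.46 without wild type replicate 1 and -0.30 with normexp background). Against 112A it was lower in 58F (-0.35 ± 0.11, adjusted p = 0.0284), which was no longer called when leaving out 58F replicate 1 or 2 or 112A replicate 1 or 3 (adjusted p 0.0701 to 0.0815) and with quantile scaling (-0.23, adjusted p = 0.114) or cyclic loess (-0.28, adjusted p = 0.0811). RPA12 (YJR063W), the Pol I counterpart, was above background on 2 arrays of 58F, 2 of 112A and 4 of wild type. It had levels of -6.19, -6.23, -6.52 and -6.69 in 58F, -5.68, -5.71, -5.72 and -6.13 in 112A and -4.62, -5.39, -5.22 and -5.31 in wild type. The groups again did not overlap. RPA12 was called lower than wild type in both intrabody strains, with fitted differences of -1.27 ± 0.17 for 58F (adjusted p = 6.08e-05) and -0.68 ± 0.17 for 112A (adjusted p = 0.00728). These came to -1.1 and -0.50 without wild type replicate 1 and to -0.54 and -0.07 (adjusted p = 0.49 for the latter) with normexp background. Against 112A it was -0.60 ± 0.17 (adjusted p = 0.0207), which was not called without 58F replicate 3 or 4 or 112A replicate 1 (adjusted p 0.0546 to 0.0579) or with cyclic loess (-0.38, adjusted p = 0.211). RPC11 (YDR045C), the Pol III counterpart, was called in 0 comparisons, with 58F minus wild type at -0.07 (95% interval -0.32 to 0.19). Its 58F minus 112A of -0.20 was called without 112A replicate 3 (-0.30, adjusted p = 0.0489) and with normexp background (-0.26, adjusted p = 0.0371).

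Of the trimer RPC82, RPC34 and RPC31, which Pol III alone carries and which opens the promoter with the factor TFIIIB, RPC82 had the largest difference of any subunit gene between 58F and 112A. RPC82 (YPR190C) had levels of -4.66, -4.65, -4.59 and -4.49 in 58F, -3.84, -3.85, -3.59 and -3.85 in 112A and -2.81, -3.54, -3.31 and -3.62 in wild type. All 58F arrays lay below all other arrays, by at least as much as the 112A arrays spread among themselves, and 112A replicate 3 overlapped the wild type. RPC82 was 1.76-fold lower in 58F than in 112A (-0.81 ± 0.14, adjusted p = 0.00173) and 2.42-fold lower than in wild type (-1.28 ± 0.14, adjusted p = 1.55e-05, or -1.11 without wild type replicate 1). The difference between 58F and 112A ran from -0.85 to -0.75 when single arrays were left out. 112A was also lower than wild type (-0.46 ± 0.14, adjusted p = 0.02), with -0.29 without wild type replicate 1, and was not called with normexp background (-0.29, adjusted p = 0.0539) or in the authors' deposited table (-0.36, adjusted p = 0.0503). RPC34 (YNR003C) was 1.28-fold above wild type in 112A (0.35 ± 0.10, adjusted p = 0.0113). Its difference of 0.19 between 58F and wild type (adjusted p = 0.107) was called without 112A replicate 2 (0.0343) and with the 2 groups fitted alone (0.041). RPC31 (YNL151C), above background on 3 of 4 arrays of 112A, was called in 0 comparisons, with 58F minus 112A at -0.01 (95% interval -0.31 to 0.29). Its 112A minus wild type of 0.12 (adjusted p = 0.503) was 0.28 and called with normexp background (adjusted p = 0.012).

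The 5 common subunits serve all 3 enzymes. RPO26 (YPR187W), the subunit also called Rpb6 that helps hold the stalk, had levels of -0.06, 0.04, -0.01 and 0.12 in 58F, 0.32, 0.25, 0.26 and 0.23 in 112A and 0.73, 0.58, 0.68 and 0.73 in wild type. The groups formed 3 separate bands. RPO26 was 1.58-fold below wild type in 58F (-0.66 ± 0.05, adjusted p = 9.73e-07), 1.33-fold below wild type in 112A (-0.41 ± 0.05, adjusted p = 6.91e-05) and 1.18-fold lower in 58F than in 112A (-0.24 ± 0.05, adjusted p = 0.004). Its wild type replicate 1 did not stand apart, and the difference of 58F from wild type without it was -0.64. RPB8 (YOR224C) had levels of -2.66, -2.65, -2.69 and -2.74 in 58F, -2.51, -2.59, -2.58 and -2.66 in 112A and -1.77, -2.31, -2.20 and -2.30 in wild type. It was lower in both intrabody strains than in wild type (-0.54 ± 0.10, adjusted p = 0.000618 for 58F, and -0.44 ± 0.10, adjusted p = 0.00391 for 112A, or -0.41 and -0.31 without wild type replicate 1), with the 58F and 112A arrays overlapping (adjusted p = 0.472).

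RPC10 (YHR143W-A), the common subunit also called Rpb12, had levels of -2.77, -2.69, -2.72 and -2.69 in 58F, -2.68, -2.77, -2.77 and -2.81 in 112A and -2.79, -3.07, -2.88 and -2.94 in wild type. RPC10 was 1.15-fold above wild type in 58F (0.20 ± 0.06, adjusted p = 0.0103). The higher level in 112A (0.16 ± 0.06, adjusted p = 0.0399) overlapped the wild type arrays. It was not called on leaving out any of 8 arrays (58F replicates 2 and 3, 112A replicates 1 to 3, wild type replicates 2 to 4, adjusted p 0.0529 to 0.112). Nor was it called with the 2 groups fitted alone (0.0872) or with a replicate block (0.0602). RPB5 (YBR154C) was above wild type in 112A (0.34 ± 0.11, adjusted p = 0.0201), with means of -2.36 ± 0.10 for 58F, -2.16 ± 0.15 for 112A and -2.50 ± 0.22 for wild type. This call was lost without 112A replicate 1 or 2 or wild type replicate 2 or 3 (adjusted p 0.0567 to 0.0582), and without wild type replicate 1 RPB5 was called higher in 58F as well (0.24, adjusted p = 0.0423). RPB10 (YOR210W), the zinc-binding subunit next to the assembly dimer, was called in 0 comparisons, with 58F minus wild type at 0.00 (95% interval -0.34 to 0.34).

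**Figure D4:**
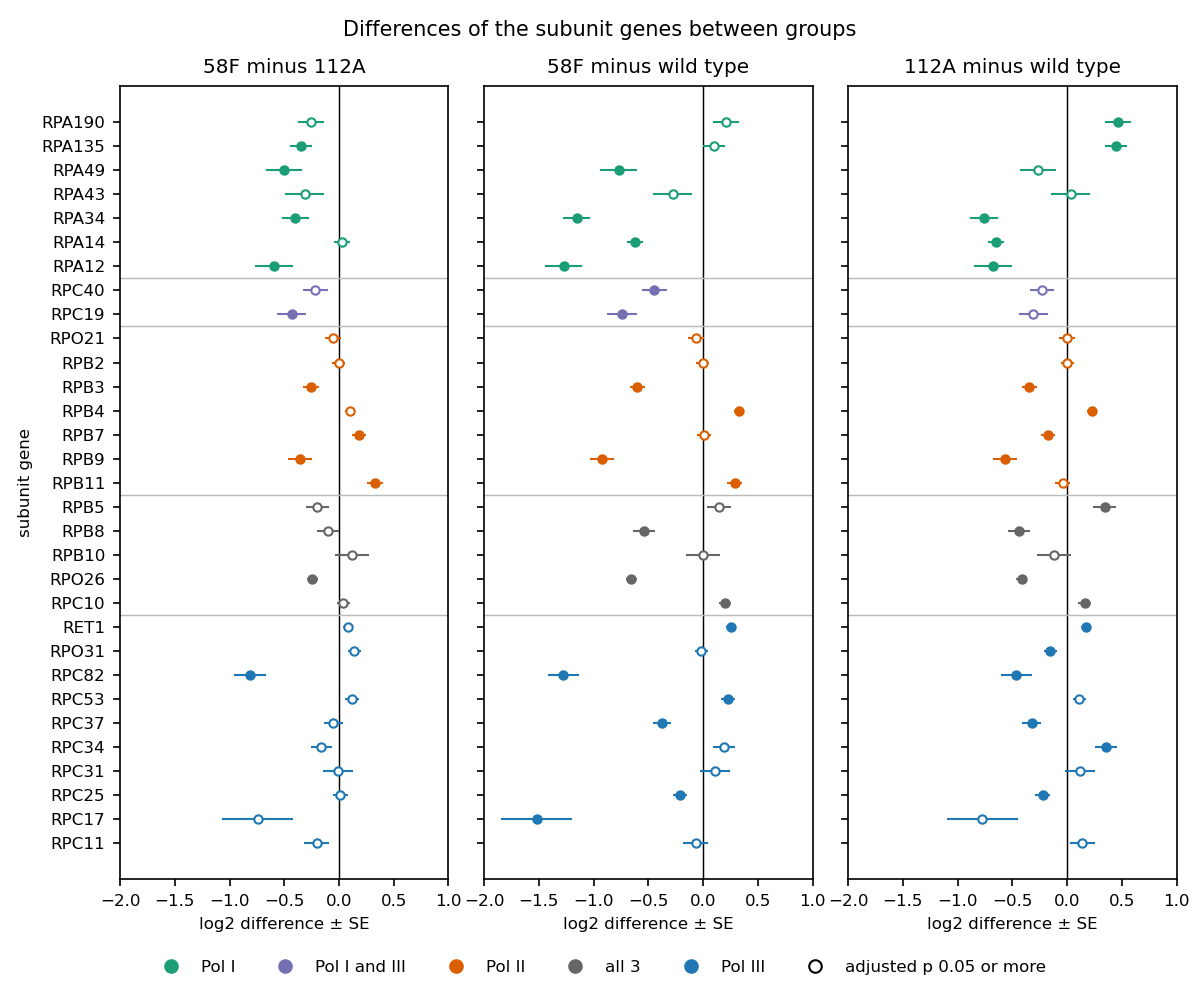
Log2 difference ± SE of each subunit gene (rows, grouped by enzyme and coloured by class) in the 3 comparisons, filled where adjusted p is under 0.05. The filled points left of 0 include RPA34, RPA12, RPB3, RPB9, RPO26 and RPC82 in every panel, and the filled points right of 0 include RPB4 and RET1 in both panels against wild type.

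Read by enzyme, with the shared subunits counted in each enzyme that holds them, 58F against 112A had 6 of 14 Pol I genes lower and 0 higher, 3 of 12 Pol II genes lower and 2 higher, and 3 of 17 Pol III genes lower and 0 higher, beside 17.9% lower and 14.1% higher over all genes. Against wild type, 58F had 8 of 14 Pol I genes lower and 1 higher, 4 of 12 Pol II genes lower and 3 higher, and 8 of 17 Pol III genes lower and 3 higher, beside 32.2% and 29.7%. For 112A against wild type the counts were 5 lower and 4 higher of 14 for Pol I, 5 and 3 of 12 for Pol II, and 6 and 4 of 17 for Pol III, beside 25.5% and 22.8%. Medians of the subunits found in 1 enzyme alone were -0.35 for Pol I, -0.00 for Pol II and -0.03 for Pol III in 58F against 112A, beside -0.02 over all genes. They were -0.62, -0.00 and -0.04 in 58F against wild type, beside -0.01. The number of Pol I subunits called lower in 58F than in 112A was 4 of 7. It was 0 without 112A replicate 1, 1 without 58F replicate 2 or 3, 2 without 58F replicate 1 or 112A replicate 2 or 3, and 2 with cyclic loess. Whether the enzymes differ from one another was not tested.

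The factors that work with the polymerases were read from lists of 9 Pol I initiation factors, 9 Pol III initiation factors, 18 general factors of Pol II, 13 elongation and C-terminal domain factors, 25 Mediator subunits and 7 assembly and import factors, and all were tested. Their counts stand beside the shares of all genes called, 32.0% for 58F against 112A, 61.9% for 58F against wild type and 48.3% for 112A against wild type. Of the 9 Pol I factors, 2 were lower and 1 higher in 58F than in 112A, 3 lower and 2 higher in 58F than wild type, and 3 lower and 1 higher in 112A than wild type. RRN11 and RRN7, both of the core factor that binds the ribosomal RNA promoter, had the largest falls among the called genes in each comparison. RRN3 fell by a similar size in 58F against 112A without passing the test (-0.31 ± 0.11, adjusted p = 0.0541). For RRN11, which was above background on 3 of 4 arrays of 58F, the differences were -0.87 ± 0.15 against 112A (adjusted p = 0.00145), -1.62 ± 0.15 for 58F against wild type (adjusted p = 3.31e-06) and -0.75 ± 0.15 for 112A against wild type (adjusted p = 0.00177), the last pair shrinking to -1.07 and -0.39 with normexp background. For RRN7 they were -0.30 ± 0.06 (adjusted p = 0.00378, or -0.20 with quantile scaling), -0.77 ± 0.06 and -0.47 ± 0.06 (-0.29 with normexp background). RRN5, of the upstream activating factor, was higher in 58F than in 112A (0.17 ± 0.04, lost with normexp background and with the mean over probes) and wild type (0.18 ± 0.04, lost with the mean over probes). HMO1, an abundant protein of the ribosomal RNA genes, was called higher than wild type in 58F (0.15 ± 0.06, adjusted p = 0.0416) and 112A (0.17 ± 0.06, adjusted p = 0.0319). The 58F call was lost without any one of 58F replicates 1 to 3 or wild type replicates 1, 3 and 4 and with cyclic loess or median scaling. The 112A call was lost without 112A replicate 2 or 4 or wild type replicate 1, 3 or 4. Both HMO1 calls were lost with a replicate block.

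Among the 9 Pol III factors 1 was higher and 0 lower in 58F than in 112A, and against wild type 3 were higher and 3 lower in 58F and 4 higher and 3 lower in 112A. BDP1, a subunit of TFIIIB, was the one higher than in 112A (0.26 ± 0.05, adjusted p = 0.00177), and it stood 0.58 ± 0.05 above wild type in 58F and 0.32 ± 0.05 in 112A. TFC4 in 58F (0.29 ± 0.07) and TFC1 in 112A (0.27 ± 0.06), both of TFIIIC, were the next highest against wild type. PZF1, the factor TFIIIA that binds 5S ribosomal RNA genes, had differences from wild type of -0.48 ± 0.06 in 58F (adjusted p = 4.56e-05) and -0.42 ± 0.06 in 112A (adjusted p = 0.000254), the latter being -0.14 with normexp background. TFC7, of TFIIIC, followed with -0.35 ± 0.08 and -0.23 ± 0.08, the latter being lost without 112A replicate 4 or wild type replicate 3 and with the 2 groups fitted alone, and -0.14 without wild type replicate 1. MAF1, the repressor of Pol III, was above both 112A (0.20 ± 0.05, adjusted p = 0.0135) and wild type (0.31 ± 0.05, adjusted p = 0.000308) in 58F, with 112A minus wild type at 0.11 (adjusted p = 0.0987). SPT15, the TATA-binding protein that all 3 enzymes use, was below wild type in 58F (-0.40 ± 0.05, adjusted p = 5.17e-05) and likewise in 112A (-0.24 ± 0.05, adjusted p = 0.00312). Its call between 58F and 112A (-0.16 ± 0.05, adjusted p = 0.0385) was lost with median scaling or a replicate block. It was also lost without 58F replicate 1, 2 or 4, 112A replicate 1 or 4 or wild type replicate 3.

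Of the 18 general factors of Pol II, 1 was lower and 2 higher in 58F than in 112A, 2 lower and 3 higher in 58F than wild type, and 4 lower and 2 higher in 112A than wild type. The TFIIH subunits TFB3 and TFB2 were the ones higher than in 112A (0.26 ± 0.04, and 0.25 ± 0.05 or 0.16 with normexp background), and SUA7, the factor TFIIB, was the lower one (-0.26 ± 0.05, adjusted p = 0.00369, or -0.12 and not called with normexp background, adjusted p = 0.108). Against wild type in 58F the largest rises were those of TFB5 (0.49 ± 0.10) and TFB2 (0.42 ± 0.05) and the largest falls those of CCL1, the TFIIH cyclin (-0.50 ± 0.09), and TFA1, of TFIIE (-0.19 ± 0.04). In 112A the largest called rises were those of SUA7 (0.21 ± 0.05, lost with normexp background) and TFB2 (0.17 ± 0.05, lost with quantile scaling and without 112A replicate 4 or wild type replicate 3 or 4). TFB5 had a rise of similar size there without passing the test (0.22 ± 0.10, adjusted p = 0.0959). The largest falls in 112A were those of CCL1 (-0.32 ± 0.09) and TFB4 (-0.16 ± 0.05). TFB4 was not called with normexp background, with the 2 groups fitted alone, or without 112A replicate 2 or wild type replicate 1 or 3.

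The 13 elongation and C-terminal domain factors had 2 lower and 1 higher in 58F than in 112A, 6 lower and 4 higher in 58F than wild type, and 5 lower and 1 higher in 112A than wild type. BUR2, the cyclin of an elongation kinase, had differences of -0.85 ± 0.17 against 112A (adjusted p = 0.00337) and -1.2 ± 0.17 against wild type (adjusted p = 8.53e-05, or -0.79 with normexp background) in 58F. SGV1, the kinase that BUR2 activates, was higher than wild type in 58F (0.34 ± 0.06) and 112A (0.23 ± 0.06), as was the C-terminal domain phosphatase RTR1 in 58F (0.25 ± 0.07). CTK3, of another such kinase, was called higher in 58F than 112A (0.24 ± 0.07), which was lost in the authors' deposited table (0.10) and without 58F replicate 2 or 112A replicate 3. SPT6, a histone chaperone, was called lower (-0.20 ± 0.07, adjusted p = 0.0431). That call was lost with normexp background, with a replicate block, without a filter, and without any one of 8 arrays (58F replicates 1 to 4, 112A replicates 1, 3 and 4, wild type replicate 3). SSU72, a phosphatase, was called below wild type in 58F (-0.57 ± 0.20, adjusted p = 0.0271) and 112A (-0.52 ± 0.20, adjusted p = 0.0496). The 58F call was lost without 58F replicate 1 or 4 or wild type replicate 1 and with normexp background, quantile scaling or the 2 groups fitted alone, and its difference was -0.34 without wild type replicate 3. The 112A call was lost without any one array but wild type replicates 2 and 4, and with normexp background (-0.19), no filter, a replicate block or the 2 groups fitted alone. SPT4, of the elongation factor DSIF, was lower in 112A than wild type (-0.32 ± 0.06, or -0.15 with normexp background).

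Of the 25 Mediator genes, 4 were higher and 2 lower in 58F than in 112A, 6 higher and 11 lower in 58F than wild type, and 5 higher and 10 lower in 112A than wild type. SSN8, the cyclin of the Mediator kinase module, and MED7 had the largest rises against 112A (0.38 ± 0.04, adjusted p = 0.00011, and 0.36 ± 0.07, adjusted p = 0.0022). SSN2, of the same module, was lower (-0.24 ± 0.05, adjusted p = 0.00279). SRB7 was called lower as well (-0.28 ± 0.10, adjusted p = 0.0446), which was lost with quantile scaling (-0.17), cyclic loess, a replicate block or no filter. The SRB7 call was also lost without any one of 58F replicates 1 to 4, 112A replicates 1 to 3 and wild type replicates 3 and 4. MED4 had the largest rise against wild type (0.54 ± 0.07 in 58F and 0.44 ± 0.07 in 112A), followed by CSE2 in 58F (0.32 ± 0.05) and NUT1 in 112A (0.26 ± 0.08). The NUT1 call was lost without 112A replicate 3 or wild type replicate 2 or 3 and with the 2 groups fitted alone. ROX3 (-0.67 ± 0.06 and -0.64 ± 0.06) and SRB2 (-0.47 ± 0.08 and -0.41 ± 0.08) had the largest falls in both strains. Of the 7 assembly and import factors, 2 were lower and 0 higher in 58F than in 112A, BUD27 (-0.47 ± 0.12, adjusted p = 0.0114) and NPA3 (-0.18 ± 0.04, adjusted p = 0.0071). Against wild type 4 were lower and 1 higher in 58F and 3 lower and 1 higher in 112A. RBA50, which acts in Pol II assembly (-0.49 ± 0.09 and -0.38 ± 0.09), and the GTPase GPN2 (-0.35 ± 0.05 and -0.29 ± 0.05) had the largest falls, and RTP1, a factor in Pol II import, was higher (0.26 ± 0.05 and 0.18 ± 0.05).

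Some of these genes are neighbours on the chromosome. RPA43 and RPA190 are adjacent genes on chromosome XV in the R64 annotation, and only RPA190 was called above wild type in 112A (0.47 against 0.03 for RPA43, a difference between the genes that was not tested). RPO26 and PZF1 are adjacent on chromosome XVI, and both were lower than in wild type in 58F (-0.66 and -0.48) and in 112A (-0.41 and -0.42, PZF1 being -0.14 there with normexp background).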

How the data were processed

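The Cy3 spot intensity was read with Agilent Feature Extraction 10.7.3.1, which subtracted the local background and removed spatial trends to give the processed signal, without scaling between arrays, per the file headers. A deposited table gives the authors' own log2 values of 5297 probes (28 of the 31 members), whose scaling method is not given in the sources used here; on each array its 75th percentile is 12.8. It served as an alternative.

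The log2 processed signal minus each array's 75th percentile was averaged over a probe's 2 spots, leaving out spots marked as outliers. Genes with several probes (30) were read from the probe with the highest mean signal. A gene was tested if well above background on at least 4 of 12 arrays, which left 5827 of 6224 genes, 31 of 31 members included. Group means were fitted with limma 3.58.1 (lmFit and eBayes, 2-sided) in R 4.3.3 with n = 4 arrays per group, and p was adjusted by Benjamini-Hochberg over all genes within each comparison. All adjusted p-values in the text come from such limma fits. The fit was tested on simulated data with independent noise for each gene and array. The simulation held no array or slide effects, so it cannot show how the fit behaves with them. RefSeq names of assembly R64 matched 5642 genes. Precision is limited by the number of arrays.

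The members and gene lists were chosen with earlier results of these data known. Every member is named. Values per array are given for up to 3 genes of each class with the smallest adjusted p, the largest subunits, RPB4, RPB7 and RPB9, and also for RPC37. Partner genes are, for each list and comparison, the 2 called members with the largest change in each direction, with MAF1 and SPT15 as lists of their own. Alternatives were normexp background (offset 50, on median spot and background signals), quantile, cyclic loess and median scaling, other filters, the deposited table, a replicate block, fits of 2 groups, the mean over probes, a 1.5-fold minimum and leaving out each array.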

Additional observations from a re-analysis of the deposited data

Results flagged for a closer look

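In 6 of 93 sets of 4 arrays (31 genes in 3 groups) one array stood far from the other three by Dixon's criterion, which chance meets in about 1 of 20 sets. In 58F, RPB7 was high on replicate 4 (-1.1 against -1.29 to -1.27). In 112A, RPA12 was low on replicate 4 (-6.13 against -5.72 to -5.68), RPB3 was high on replicate 3 (-1.97 against -2.13 to -2.11), and RPC82 was high on replicate 3 (-3.59 against -3.85 to -3.84). In wild type, replicate 1 was high for RPA135 (-3.53 against -3.77 to -3.75) and RPB2 (-0.66 against -0.89 to -0.86).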

How the results depend on the processing

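Of 2121 combinations of a subunit gene's difference and an alternative setting, 1962 kept the side of the threshold, 130 lost a call and 29 gained one. Where either fit called the difference, 0 reversed direction, and reversals of uncalled differences were not counted. The 93 combinations with the mean over probes could hardly change, since each member has 1 probe. The 1.5-fold minimum, which can only remove calls, gave 34 of the 130 lost calls. For 58F against 112A the 2 genes called higher became 1 with no filter on dim probes, 1 with the authors' value table, 1 with the replicate block and 0 at a minimum of 1.5-fold, and the 9 called lower became 2 at 1.5-fold. At 1.5-fold the 5 called higher in 58F against wild type became 0, the 7 higher in 112A became 0 and the 12 lower in 112A became 3, by construction. Leaving out single arrays gave 1 to 2 higher and 3 to 10 lower for 58F against 112A, 5 to 6 and 14 to 15 for 58F against wild type, and 5 to 7 and 10 to 13 for 112A against wild type, partly by construction since fewer arrays enter. Scaling and background moved the counts for 58F against 112A to 3 higher and 7 lower with quantile scaling, 2 and 6 with cyclic loess and 2 and 11 with normexp, which also starts from other signal columns. For 112A against wild type they were 7 and 15, 7 and 14, and 9 and 8. The authors' table gave 8 lower among the 28 members that it holds. There RPB7, RPO31 and RPC82 lost the call, and members that it lacks could not be called. For the other changes the cause was not tested. Whether arrays with the same replicate number are paired cannot be told from so few arrays, whose correlations overlapped. Of same-number pairs across groups, 5 of 12 had deviations correlating over 0.1 (-0.174 to 0.194). With different numbers it was 9 of 36 (-0.303 to 0.249), and 9 of 24 best matches had the same number. The replicate block gave 1 higher and 9 lower, 5 and 14, and 6 and 11 in the 3 comparisons. RPA12 and RPC17, above background on part of the arrays, are the least certain values.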
